A study of Homo sapiens with 4 samples.

Results

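Transcripts of 50 splicing regulators were followed in U87 cells, an established human glioblastoma line, with and without carnosine, the dipeptide beta-alanyl-L-histidine. They are the SR proteins, the kinases that phosphorylate them, the heterogeneous nuclear ribonucleoproteins (hnRNPs), the PTB proteins and a few tissue-regulated factors. Each was taken by its symbol from the deposited table, and the rule uses no measured value, although the set was drawn up with earlier results of these data known. All 50 were found among the 58219 genes listed. Of these, 49 passed the filter on low counts and 1, the kinase gene CLK2, had no count. The treated group was 2 libraries from cells kept for 24 h in fresh medium with 50 mM carnosine. The control group was 2 libraries from cells kept for the same 24 h in fresh medium with 0 mM carnosine. Both groups came from the same line in the same high-glucose, serum-supplemented medium. An established line is a single tumor's descendant, so the 4 libraries say nothing of other glioblastomas.

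In pre-mRNA splicing the spliceosome removes introns, and regulatory proteins bound to exons and introns decide which splice sites it uses. SR proteins have RNA recognition motifs and a tail rich in arginine and serine, and mostly promote the inclusion of exons to which they bind. The SRPK kinases phosphorylate that tail in the cytoplasm and the CLK kinases in the nucleus. The hnRNPs often oppose SR proteins. Many genes of both families limit their own level through poison exons or retained introns, which send part of their transcripts to nonsense-mediated decay or keep them in the nucleus. GENCODE 29 lists transcripts of the decay class for 37 of the 50 genes (74.0%), and for 43.4% of the 12406 protein-coding genes tested. It lists retained-intron transcripts for 37 of the 50 as well (74.0%), against 57.0%. The counts are per gene, so productive and unproductive transcripts of a gene were counted together, and no splicing event was measured.

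With an adjusted p under 0.05, 3 of the 49 genes changed: MBNL2 rose, and HNRNPAB and PTBP2 fell. That is 6.12% of them, against 8.31% of all 16340 genes tested. By direction, 1 of 49 rose where 3.95% of all genes did, and 2 of 49 fell where 4.36% did. By this test the share called was thus close to the background and no larger. The log2 fold changes of the other 46 lay between -0.54 and 0.46. MBNL2 stood far outside that range at 1.48 ± 0.22 (SE, n = 2 each), which is 2.80-fold higher. For 30 of the 49 genes the 95% interval of the log2 fold change lay within a 1.5-fold change either way, and for 19 it reached beyond.

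**Figure D1:**
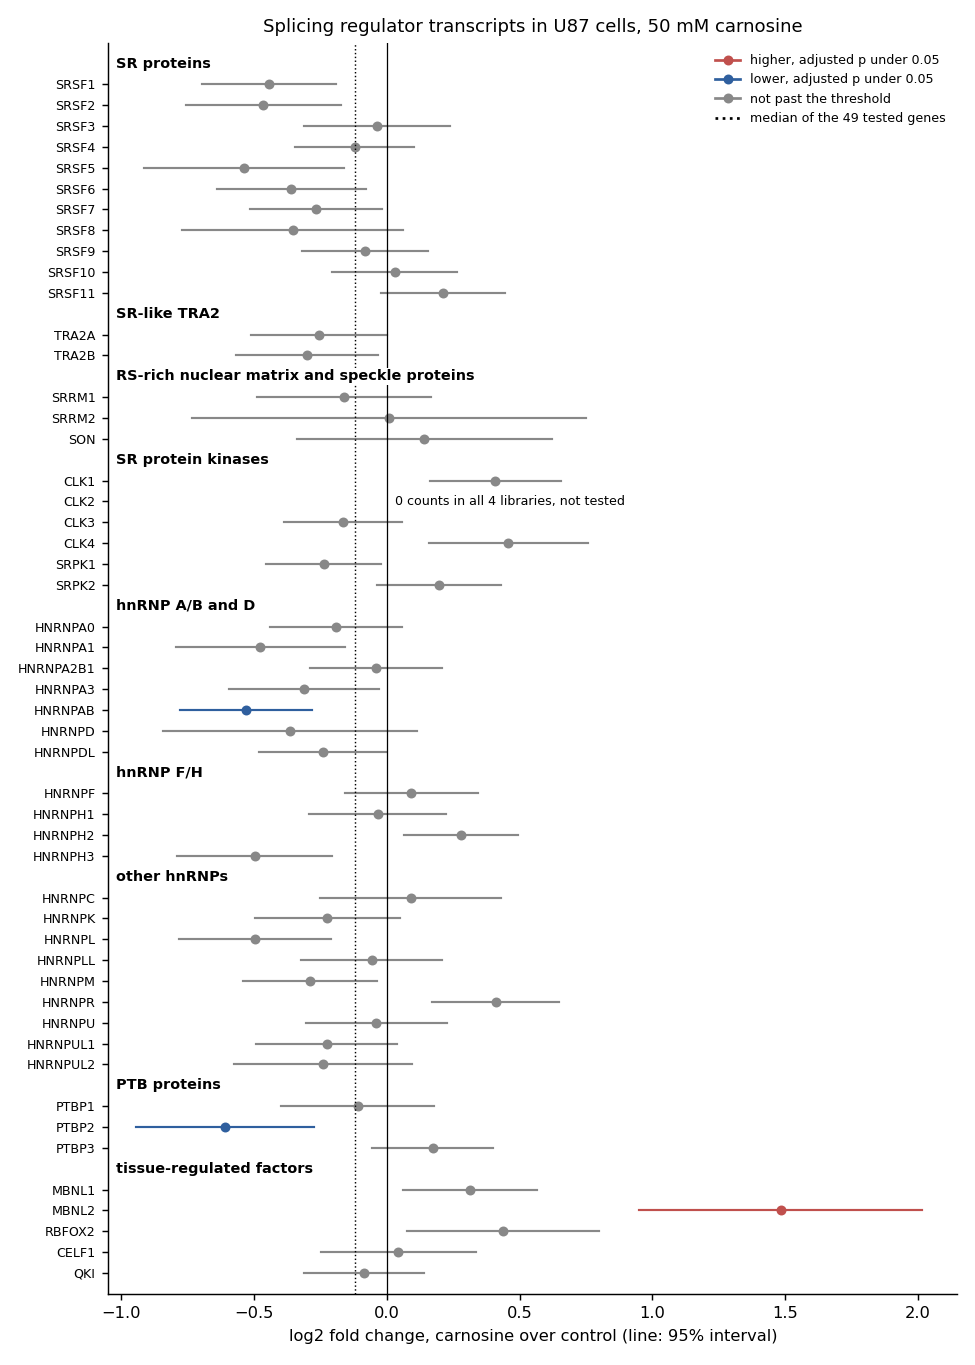
Log2 fold change (carnosine over control, points) with its 95% interval (lines) for each splicing regulator, ordered by role. MBNL2 is the gene that rose, HNRNPAB and PTBP2 are the genes that fell, CLK2 had no count, and the dotted line marks the median of -0.12.

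The median log2 fold change of the 49 was -0.12, and 33 of them lay below 0, while the median over all genes tested was 0.0009 and 49.9% lay below 0. Carnosine and control libraries did not overlap for 36 of the 49 genes, 25 of them with both carnosine libraries lower and 11 with both higher. That is 73.5%, against 56.5% of all genes (28.8% lower and 27.8% higher). An unadjusted p under 0.05 was reached by 22 of the 49 (44.9%), against 27.4% of all genes; 15 of them were lower, against 14.1% of all genes, and 7 higher, against 13.3%. The splicing regulators are deeply counted: their median mean count was 7226, against 930 over all genes tested, and their median SE was 0.112, against 0.154. The part of this depth in those shares was not tested. The number called depended on the test. DESeq2 called 12 of the 49 (24.5%) where it called 13.4% of all genes, 4 of them higher and 8 lower against 6.29% and 7.1% of all genes. limma-voom called 6 (12.2%) where it called 8.09%, 2 higher and 4 lower against 3.84% and 4.25%.

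The libraries summed to 57728762 and 51632970 counts with carnosine, and to 71766267 and 59155538 counts in the controls. Of 8 astroglial and glioma markers, VIM, CD44, NES and OLIG2 had at least 105 counts in every library, GFAP had 4 to 16, SOX2 had 2 counts in 1 library, and S100B and AQP4 had none. None of the 5 tested passed, and the 8 summed to 6930 and 7190 CPM with carnosine and 8740 and 8200 CPM in the controls, without overlap. Most of that sum was VIM, with 5583 and 5629 CPM with carnosine and 7420 and 7045 CPM in the controls. CD44 lay the other way, with 1317 and 1522 CPM with carnosine and 1281 and 1107 CPM in the controls. OLIG2 was lower in both carnosine libraries, and the groups of NES and GFAP overlapped. The part of these markers in the results was not tested. Among 8 markers of immune, endothelial, epithelial and neuronal cells, PECAM1 passed, with 365 and 265 counts with carnosine and 148 and 153 in the controls (log2 fold change 1.28 ± 0.21, adjusted p = 0.0215). Its part in the results was not tested. Of the other markers of that kind, RBFOX3 had no count, PTPRC at most 8 and CDH1 at most 3, and CD68, VWF, EPCAM and SYP had between 14 and 102. Summed, these 8 markers had 9.58 and 9.05 CPM with carnosine and 4.89 and 5.59 CPM in the controls. In libraries of bulk RNA a lower level per cell and fewer cells that express a gene cannot be told apart.

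The promoters of the 3 genes that passed the test are shown because these are the genes of the set that differed between the groups. The sequences come from RefSeq (GRCh38.p14), where 45 of the 50 genes had an entry, and run from 250 bases before the transcription start to 50 after it. Capitals mark matches on either strand to 6 motifs. The TATA box was searched as TATAAA and the E-box as CACGTG. The AP-1 site was searched as TGAGTCA and the cAMP response element as TGACGTCA. The FOXO site was searched as GTAAACA, and the CCAAT box by the letters of its name.
MBNL2, upstream start, chr13:97141584-97141883, plus strand: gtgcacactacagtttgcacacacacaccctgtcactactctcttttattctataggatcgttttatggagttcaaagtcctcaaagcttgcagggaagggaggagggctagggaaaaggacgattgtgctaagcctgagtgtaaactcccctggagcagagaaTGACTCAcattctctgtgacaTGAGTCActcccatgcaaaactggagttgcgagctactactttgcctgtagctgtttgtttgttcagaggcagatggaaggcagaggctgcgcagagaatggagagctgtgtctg
MBNL2, start inside the gene model, chr13:97222083-97222382, plus strand: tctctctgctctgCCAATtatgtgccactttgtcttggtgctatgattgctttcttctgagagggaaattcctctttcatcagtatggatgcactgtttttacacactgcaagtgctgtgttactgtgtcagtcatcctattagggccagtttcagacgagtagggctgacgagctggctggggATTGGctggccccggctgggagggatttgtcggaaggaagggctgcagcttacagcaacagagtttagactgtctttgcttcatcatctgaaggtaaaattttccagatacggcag
HNRNPAB, chr5:178204283-178204582, plus strand: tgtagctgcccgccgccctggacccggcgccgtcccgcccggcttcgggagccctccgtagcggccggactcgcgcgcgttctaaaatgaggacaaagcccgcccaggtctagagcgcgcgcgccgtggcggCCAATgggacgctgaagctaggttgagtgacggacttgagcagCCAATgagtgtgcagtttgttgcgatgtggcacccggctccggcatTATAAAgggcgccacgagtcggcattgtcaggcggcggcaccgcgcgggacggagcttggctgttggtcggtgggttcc
PTBP2, chr1:96722388-96722687, plus strand: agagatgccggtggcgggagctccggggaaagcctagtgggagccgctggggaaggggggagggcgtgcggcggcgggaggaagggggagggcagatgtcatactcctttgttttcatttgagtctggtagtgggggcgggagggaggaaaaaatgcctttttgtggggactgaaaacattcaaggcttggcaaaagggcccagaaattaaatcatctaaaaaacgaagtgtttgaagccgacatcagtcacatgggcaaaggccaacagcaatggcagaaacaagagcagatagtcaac
The upstream start of MBNL2 has 2 AP-1 matches, which begin 86 and 65 bases before the start; 4.95% of the 35116 promoters of this length hold at least 1. That start lies before the gene model of GENCODE 29, which begins at base 97221434 of chromosome 13. The other MBNL2 start has 2 CCAAT matches, 237 and 66 bases before it. HNRNPAB has CCAAT matches 118 and 75 bases before its start and a TATA match 29 bases before it; 34.6% of promoters hold a CCAAT match and 11.5% a TATA match. The PTBP2 window has no match to these letters. It lies inside the gene model of GENCODE 29, which begins at base 96721665 of chromosome 1. E-box, cAMP response element and FOXO matches were not found in these 4 windows and are held by 7.26%, 1.85% and 3.42% of promoters. No match overlapped another, and a match is a description of letters, not a binding site.

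Among the 11 SR proteins, 0 passed edgeR's test over all genes, 5 had an unadjusted p under 0.05, and DESeq2 called 3. Over all genes these shares were 8.31%, 27.4% and 13.4%. For 9 of the 11 the log2 fold change was negative (81.8%, against 49.9% of all genes), and the median was -0.27. SRSF1, the founding SR protein and a proto-oncogene, had 234 and 250 CPM (counts scaled by library total and TMM factor) with carnosine, against 339.4 and 319.6 CPM in the controls. Both carnosine libraries were lower, and its log2 fold change of -0.45 ± 0.11 came nearest to the threshold (SE, adjusted p = 0.0507). It lay past that threshold with upper-quartile scaling (adjusted p = 0.0491), total counts only (0.0452), limma-voom (0.0456) and DESeq2 (0.00405). With RLE scaling in edgeR it did not (adjusted p = 0.0515). When single libraries were left out, its log2 fold change ran from -0.498 to -0.401. SRSF2, which binds exonic enhancers and is recurrently mutated in myeloid cancers, had 153.0 and 177.1 CPM with carnosine and 241.8 and 213.9 CPM in the controls. Its libraries did not overlap either (log2 fold change -0.47 ± 0.12, adjusted p = 0.0640). The log2 fold change of SRSF2 ran from -0.579 to -0.366 when single libraries were left out.

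SRSF5 had the lowest fold change of the family. It had 74.5 and 53.2 CPM with carnosine and 93.3 and 92.0 CPM in the controls, and the 2 carnosine libraries lay further apart than the controls did (log2 fold change -0.54 ± 0.16, adjusted p = 0.0844). Without carnosine replicate 1 it was -0.80 and past the threshold (adjusted p = 0.00867), and without carnosine replicate 2 it was -0.32 (adjusted p = 0.135). DESeq2 called SRSF1, SRSF2 and SRSF5 lower. SRSF6 and SRSF7 had -0.36 ± 0.12 and -0.27 ± 0.11 (adjusted p = 0.107 and 0.159). SRSF8, the scarcest member with 5.40 to 7.69 CPM, had -0.35 ± 0.18. SRSF3, which joins splicing to mRNA export, and SRSF10, which represses splicing when dephosphorylated, had overlapping groups and log2 fold changes of -0.04 and 0.03. Without carnosine replicate 1 these became 0.07 and -0.04. SRSF4 and SRSF9 had -0.12 and -0.08. SRSF11 alone in the family had both carnosine libraries higher, with 105.5 and 98.4 CPM against 85.2 and 90.9 CPM in the controls (0.21 ± 0.10, adjusted p = 0.226).

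Levels can be set side by side per length of exon. Per kb of annotated exon, SRSF1 had 70.1 and 74.9 CPM with carnosine and 102.0 and 95.7 CPM in the controls, and SRSF2 50.7 and 58.7 CPM with carnosine and 80.1 and 70.9 CPM in the controls. These were the highest levels of the family in each library, and the levels of SRSF1 and SRSF2 did not overlap within either group. SRSF8 had 1.34 to 1.91 CPM per kb, the lowest. SRSF1 made up 24.5% and 24.4% of the summed family level with carnosine, and 27.1% and 26.8% in the controls. The exon length takes in retained-intron transcripts, so genes with long ones are given too low a level.

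The SR-like proteins TRA2A and TRA2B bind purine-rich enhancers beside SR proteins. TRA2B had 140.4 and 160.8 CPM with carnosine and 190.7 and 180.4 CPM in the controls, both carnosine libraries lower (log2 fold change -0.30 ± 0.11, adjusted p = 0.142). TRA2A had -0.25 ± 0.11 (adjusted p = 0.185), also without overlap. Neither passed.

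The large RS-rich proteins of nuclear speckles differed more between libraries of one group than between groups. SRRM2, a scaffold of speckles, had 359.5 and 199.2 CPM with carnosine and 345.3 and 210.8 CPM in the controls. Its first library was the higher in both groups, and its SE of 0.31 was the largest of the 49 genes (log2 fold change 0.007, adjusted p = 0.993). SON, the other speckle scaffold, had 406.2 and 283.4 CPM with carnosine and 354.9 and 270.3 CPM in the controls (0.14 ± 0.20, adjusted p = 0.706). SRRM1, a coactivator of splicing, had 73.8 and 60.2 CPM with carnosine and 81.6 and 68.3 CPM in the controls (-0.16 ± 0.14, adjusted p = 0.504). All 3 genes were higher in replicate 1 than in replicate 2 of either group, and their groups overlapped. SRRM2 had log2 fold changes of -0.31 without control replicate 2 and -0.48 without carnosine replicate 1, and SON had -0.05 and -0.14 in these settings. SRRM1 had -0.32 without carnosine replicate 1, -0.027 without carnosine replicate 2, -0.030 without control replicate 1 and -0.29 without control replicate 2.

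**Figure D2:**
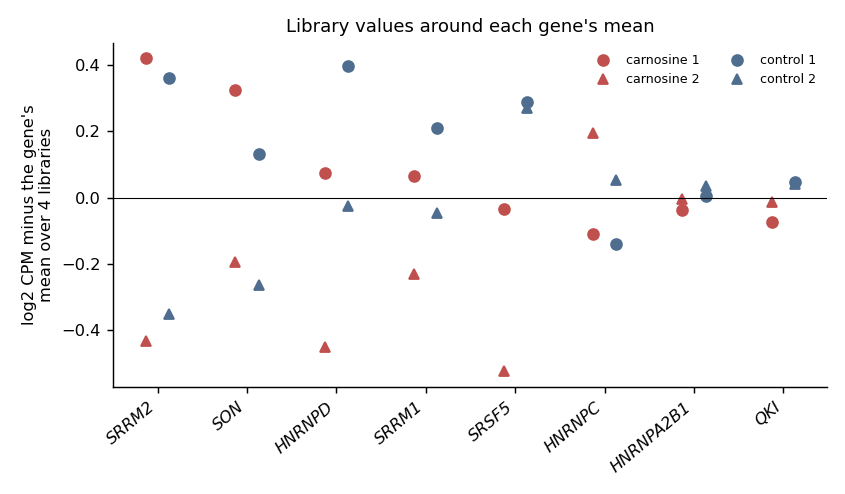
Log2 CPM of each library minus the gene's mean over the 4 libraries (vertical axis) for 8 splicing regulators, carnosine in red and control in blue, replicate 1 as circles and replicate 2 as triangles. For SRRM2, SON, HNRNPD and SRRM1 the circles lie above the triangles of the same color, for HNRNPC below them.

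Of the 6 SR protein kinase genes, 5 were tested and 0 passed edgeR's test, while 3 had an unadjusted p under 0.05 and DESeq2 called 2 (over all genes, 8.31%, 27.4% and 13.4%). CLK1, a nuclear kinase whose own transcript is largely held in the nucleus with retained introns, had 51.6 and 55.5 CPM with carnosine and 38.1 and 42.6 CPM in the controls. CLK4, its closest paralog, had 17.1 and 18.6 CPM with carnosine and 12.3 and 13.7 CPM in the controls. Both genes lay higher in both carnosine libraries. Their log2 fold changes were 0.41 ± 0.10 (1.33-fold, adjusted p = 0.0588) for CLK1 and 0.46 ± 0.13 (1.37-fold, adjusted p = 0.0714) for CLK4. DESeq2 called both (adjusted p = 0.0259 and 0.0411), and limma-voom called neither (0.0615 and 0.0733). CLK3 lay the other way, with 44.6 and 44.5 CPM with carnosine against 51.6 and 48.2 CPM in the controls (-0.16 ± 0.09, adjusted p = 0.314). SRPK1, the main cytoplasmic kinase of SR proteins, had 61.1 and 63.9 CPM with carnosine and 72.8 and 74.7 CPM in the controls. SRPK2, its paralog, had 48.7 and 46.5 CPM with carnosine and 39.6 and 43.4 CPM in the controls. The 2 SRPK genes thus lay on opposite sides of 0, at -0.24 ± 0.09 and 0.20 ± 0.10, and neither passed (adjusted p = 0.150 and 0.250).

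CLK2 (ENSG00000176444.18, chromosome 1, 155262868 to 155278491, GRCh38) was listed at 0 in all 4 libraries. A count of 0 allows up to 3 counts, or between 0.0422 and 0.0595 CPM in a library, which covers counting error only. Other genes near it shared the gap. SCAMP3, HCN3 and PKLR also had no count and FAM189B had 1, whereas FDPS, next after PKLR, had 6239 to 10901 counts and MTX1 on the other side 1137 to 1819. In GENCODE 29, patches or alternate loci also carry transcripts of FAM189B, SCAMP3, CLK2, HCN3 and PKLR, and of none of the 7 other genes plotted. The part of these copies in the missing counts was not tested, so the level of CLK2 is not known here. Such copies are also listed for HNRNPH1, HNRNPL, HNRNPR and RBFOX2, which all had counts. Among the other splicing genes described further on, LSM2 and TAF15 have such copies and no count, and PRPF8, DDX39B and DHX16 have such copies and at most 7 counts in any library.

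**Figure D3:**
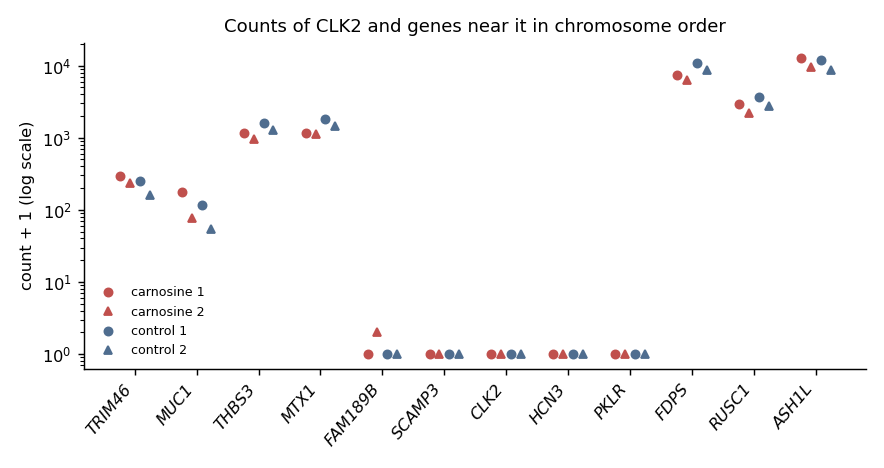
Counts plus 1 (log scale) of CLK2 and 11 protein-coding genes near it in chromosome order, carnosine in red and control in blue. From FAM189B to PKLR the counts are 0 or 1 in all libraries, and FDPS has at least 6239.

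Of the 20 hnRNP genes, 1 fell, 0 rose and 19 did not pass; over all genes 4.36% fell and 3.95% rose. For 16 of the 20 the log2 fold change was negative (80.0%, against 49.9% of all genes), and the median was -0.23. HNRNPAB (ENSG00000197451.11, chromosome 5, 178204507 to 178211163, GRCh38), an RNA-binding protein of the A/B and D branch, was the one that fell. It had 92.1 and 101.8 CPM with carnosine and 144.2 and 136.1 CPM in the controls, so the groups were well apart. It averaged 97.0 ± 6.84 CPM with carnosine and 140.1 ± 5.72 CPM in the controls (SD, n = 2 each), a 1.45-fold fall, -0.53 ± 0.10 in log2 terms (SE; edgeR's quasi-likelihood test, adjusted p = 0.0317). Leaving out control replicate 1 ended the call (-0.49, adjusted p = 0.135), as did leaving out control replicate 2 (-0.58, adjusted p = 0.0938) and carnosine replicate 1 (-0.46, adjusted p = 0.0602). Of its 2144 exonic bases, 196 lie opposite exons of PHYKPL, and whether the counting used strand is not known here. Such overlap is not particular to HNRNPAB and is annotated for 19 of the 50 genes. It takes in 1106 of 3017 exonic bases of SRSF2, 1729 of 3744 of SRSF9, 1555 of 9989 of MBNL1 and 3502 of 22512 of HNRNPU.

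All 7 members of the A/B and D branch had log2 fold changes below 0, with a median of -0.31. HNRNPA1, a repressor of exon inclusion and the best studied opponent of SRSF1, had 360.2 and 442.6 CPM with carnosine and 538.6 and 578.1 CPM in the controls. Its groups did not overlap (-0.48 ± 0.13, adjusted p = 0.0754), and DESeq2 called it lower. The log2 fold change of HNRNPA1 ran from -0.637 to -0.338 when single libraries were left out. Rows of 75 HNRNPA1 pseudogenes held 4.49% as many counts as the gene itself, 991 and 987 with carnosine and 1640 and 1597 in the controls. HNRNPA2B1, an RNA transport and m6A reader protein, had 448.5 and 459.7 CPM with carnosine and 462.1 and 472.2 CPM in the controls, a log2 fold change of -0.04 with a 95% interval of -0.29 to 0.21. The gap between its groups was small beside that interval. HNRNPA0, HNRNPA3 and HNRNPDL had -0.19, -0.31 and -0.24, and none passed. HNRNPD, or AUF1, which marks AU-rich mRNAs for decay, had 70.4 and 48.9 CPM with carnosine and 88.1 and 65.8 CPM in the controls. Its groups overlapped, with replicate 1 higher than replicate 2 in each (-0.37 ± 0.20, adjusted p = 0.296). Its log2 fold change was -0.66 without carnosine replicate 1, -0.13 without carnosine replicate 2, -0.14 without control replicate 1 and -0.57 without control replicate 2, and it did not pass in any of these.

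The F/H branch binds runs of G. HNRNPH3 had 46.6 and 39.7 CPM with carnosine and 56.6 and 65.4 CPM in the controls, both carnosine libraries lower (-0.50 ± 0.12, adjusted p = 0.0548). HNRNPH2 had 72.6 and 73.7 CPM with carnosine and 58.9 and 61.7 CPM in the controls, both higher (0.28 ± 0.09, adjusted p = 0.105); it shares exons with a readthrough transcript of RPL36A. These paralogs lay on opposite sides of 0. HNRNPF had 0.09 and HNRNPH1 -0.04, neither of them past the test. The value of HNRNPH1 was 0.01 without control replicate 2 and 0.010 without carnosine replicate 2.

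Of the other 9 hnRNPs, 2 came near the threshold without passing it, with log2 fold changes on opposite sides of 0. HNRNPL, which binds CA repeats, had 122.3 and 146.5 CPM with carnosine and 186.2 and 192.9 CPM in the controls (-0.50 ± 0.12, adjusted p = 0.0521). Its 2 pseudogene rows held 6.58% as many counts as the gene, 460 and 496 with carnosine and 859 and 771 in the controls. HNRNPR, a relative of SYNCRIP, had 267.2 and 278.9 CPM with carnosine and 203.2 and 207.6 CPM in the controls (0.41 ± 0.10, adjusted p = 0.0545). Neither HNRNPL nor HNRNPR overlapped between groups, and both were called by DESeq2 and limma-voom. The log2 fold change of HNRNPR was the highest of the 20 hnRNPs. HNRNPK, a protein that binds C-rich RNA and DNA, had the highest mean level of all 49 genes per kb of exon; it had 605.2 and 671.7 CPM with carnosine and 746.8 and 744.7 CPM in the controls (-0.22 ± 0.12, adjusted p = 0.266). HNRNPM, HNRNPUL1 and HNRNPUL2 had -0.29, -0.23 and -0.24, and did not pass (adjusted p = 0.138 to 0.325). HNRNPC, which binds U runs and shields introns, had 532.9 and 657.5 CPM with carnosine and 521.7 and 596.9 CPM in the controls, replicate 2 higher in both groups (0.09 ± 0.14, adjusted p = 0.739). HNRNPU and HNRNPLL also overlapped between groups, at -0.04 and -0.06.

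PTBP2 (ENSG00000117569.18, chromosome 1, 96721665 to 96823738, GRCh38), the neuronal PTB protein, fell. It had 6.57 and 6.83 CPM with carnosine and 10.1 and 10.3 CPM in the controls, and each pair of replicates lay close together. The averages were 6.70 ± 0.19 CPM with carnosine and 10.2 ± 0.13 CPM in the controls (SD, n = 2 each), 1.53-fold lower, or -0.61 ± 0.14 in log2 terms (SE, adjusted p = 0.0464). The call lay near the threshold: it ended with upper-quartile scaling (adjusted p = 0.0519), with total counts only (0.0631) and when any 1 of the 4 libraries was left out (0.061 to 0.188), while the log2 fold change stayed between -0.64 and -0.59. PTBP1, the paralog that in other cells represses a PTBP2 exon so that the transcript decays, had 269.1 and 281.7 CPM with carnosine and 322.3 and 272.3 CPM in the controls. Its groups overlapped (-0.11 ± 0.12, adjusted p = 0.613), and without control replicate 1 its log2 fold change was 0.01. PTBP3 had 0.17 ± 0.10 (adjusted p = 0.303). Per kb of exon PTBP2 made up 1.01% and 0.999% of the family with carnosine and 1.36% and 1.6% in the controls, and PTBP1 at least 77.4% in each library.

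MBNL2 (ENSG00000139793.18, chromosome 13, 97221434 to 97394120, GRCh38) belongs to the muscleblind proteins, which steer fetal-to-adult splicing changes and are captured by CUG repeats in myotonic dystrophy. It had 122.8 and 192.2 CPM with carnosine and 49.2 and 63.4 CPM in the controls. Both carnosine libraries lay well above both controls, although they differed from each other. The averages were 157.5 ± 49.1 CPM with carnosine and 56.3 ± 10.1 CPM in the controls (SD, n = 2 each), 2.80-fold higher, or 1.48 ± 0.22 in log2 terms (SE, adjusted p = 0.0177, 95% interval 0.95 to 2.02). The log2 fold change was 1.77 without carnosine replicate 1, 1.12 without carnosine replicate 2, 1.31 without control replicate 1 and 1.67 without control replicate 2, and the gene was called each time. Tested against a fold of 1.5, MBNL2 did not pass (adjusted p = 0.128) and neither did any other of the 49; 23 of all genes did (0.141%).

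**Figure D4:**
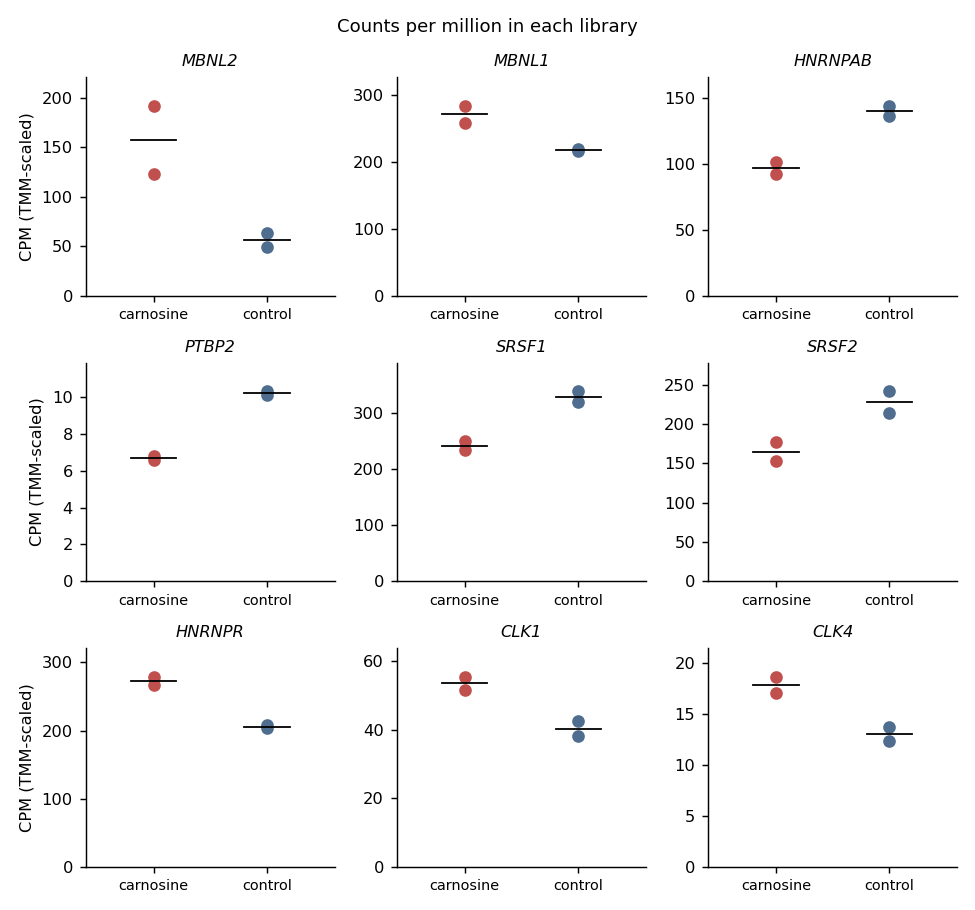
CPM in each library (points) and the mean of each group (horizontal lines) for 9 splicing regulators, each axis starting at 0. MBNL2 lies above 122 CPM in both carnosine libraries and below 64 CPM in both controls. Of the genes shown, only MBNL2, HNRNPAB and PTBP2 passed the test. The groups are apart for each gene shown, as they are for 56.5% of all genes tested.

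MBNL1, its paralog, had 258.2 and 284.5 CPM with carnosine and 219.7 and 216.6 CPM in the controls. Both carnosine libraries were higher, but the gene did not pass (log2 fold change 0.32 ± 0.11, adjusted p = 0.114). Per kb of exon MBNL2 had 25.0 and 39.2 CPM with carnosine and 10.0 and 12.9 CPM in the controls, while MBNL1 had 25.8 and 28.5 CPM with carnosine and 22.0 and 21.7 CPM in the controls. MBNL2 thereby made up 48.7% and 57.5% of the summed MBNL1, MBNL2 and MBNL3 level with carnosine, and 30.6% and 36.6% in the controls. MBNL1 was the larger in both controls, and in the carnosine libraries the order differed between replicates. MBNL3 stayed at or below 0.736 CPM per kb in each library.

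**Figure D5:**
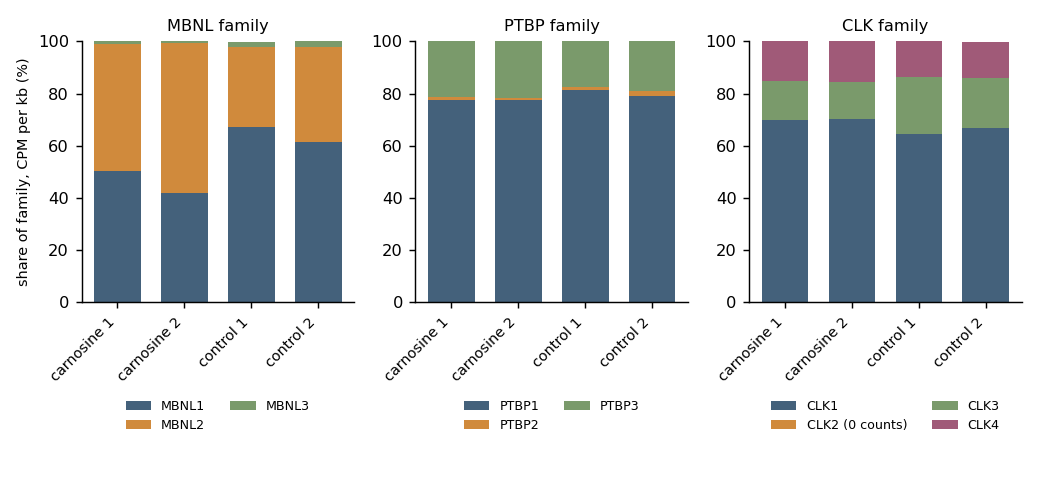
Share of each family's summed CPM per kb of exon (%) taken by each paralog in the 4 libraries. MBNL2 takes 48.7% and 57.5% of the MBNL family with carnosine and 30.6% and 36.6% in the controls; CLK2 had 0 counts.

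The other tissue-regulated factors did not pass. RBFOX2, which binds GCAUG and drives mesenchymal splicing patterns, had 7.98 and 8.72 CPM with carnosine and 6.30 and 6.02 CPM in the controls, both higher (0.44 ± 0.15, adjusted p = 0.121). CELF1, which opposes muscleblind proteins on many exons, had 0.04 ± 0.12 (adjusted p = 0.861) and overlapping groups. QKI, a STAR-family protein of glia and mesenchymal cells, had -0.09 ± 0.10 (adjusted p = 0.617).

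Among 124 other splicing genes in 5 lists, 109 were tested, LSM2, TAF15, PRPF8, DDX39B and DHX16 being among those with too few counts; 5 rose and 5 fell, which is 9.17%, close to the 8.31% of all genes. Their median log2 fold change was -0.10. In the list of U1 and U2 particles and splice site recognition, 2 of 18 fell (11.1%, against 4.36% of all genes). SF1, the branch point binding protein, had 122.8 and 114.8 CPM with carnosine and 206.2 and 161.5 CPM in the controls (-0.63 ± 0.14, adjusted p = 0.0412). SF3A3 was the other (-0.48 ± 0.10, adjusted p = 0.0389). In the list of tri-snRNP, Prp19 complex and helicases, 1 of 26 changed (3.85%, against 8.31% of all genes). The gene was DDX46, the helicase that remodels the U2 particle. It had 147.3 and 146.3 CPM with carnosine and 93.4 and 94.5 CPM in the controls (0.64 ± 0.09, adjusted p = 0.0170). In the exon junction and nonsense-mediated decay list, UPF2 rose (0.40 ± 0.09, adjusted p = 0.0464). That is 1 of 16 (6.25%), where 3.95% of all genes rose. The 13 tested Sm and LSm genes held 0 calls, with 1 at an unadjusted p under 0.05 (7.69%, against 27.4% of all genes).

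The list of other splicing regulators held 3 rises and 3 falls among 36, which is 16.7%, against 8.31% of all genes. An unadjusted p under 0.05 was reached by 47.2% of the list, against 27.4% of all genes. RBM3, a cold-inducible RNA-binding protein, had 93.7 and 94.5 CPM with carnosine and 186.8 and 169.5 CPM in the controls, 1.89-fold lower (-0.92 ± 0.10, adjusted p = 0.0113). CIRBP, the other cold-inducible member, also fell (log2 fold change -0.60 ± 0.10, adjusted p = 0.0215). RBM39, an SR-like coactivator, and PNN, a speckle and junction protein, rose by 0.57 ± 0.11 and 0.49 ± 0.12 (adjusted p = 0.0279 and 0.0490). Without control replicate 1, and likewise without control replicate 2, no gene of the 5 lists was called higher; RBM3 was still called when any 1 of the 4 libraries was left out. The calls of SF3A3, DDX46, UPF2, RBM39 and PNN ended when either control was left out (adjusted p from 0.0704 to 0.292), SF1 (0.185) and CIRBP (0.081) without control replicate 1. SF1 (0.0502), UPF2 (0.0770) and PNN (0.0685) were also lost without carnosine replicate 2, and SF3A3 (0.0778), UPF2 (0.0738) and PNN (0.0550) without carnosine replicate 1.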

How the data were processed

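Total RNA depleted of ribosomal RNA was sequenced, per the labels' protocols, in 2 libraries of carnosine-treated and 2 of control U87 cells. The submitters' processing notes name bcl2fastq 2.17.0, HISAT2 2.1.0, HTSeq 0.6.1 and the hg38 build; for the annotation release and the use of strand in counting, the sources used here give nothing. The deposited values are raw counts per gene. Nothing in the labels says that the replicates came from separate cultures, so p-values measure the spread between these libraries, which may be technical; replicates differed beyond counting noise in both groups.

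Genes with at least 10 counts (0.171 CPM at the median library) in 2 libraries and 15 in all were kept. edgeR 4.0.16 (R 4.3.3; TMM scaling, quasi-likelihood F test, group as the only term, two-sided) was run on all 16340 genes kept, with Benjamini-Hochberg adjustment over them and a threshold of 0.05. The SE is the log2 fold change over the square root of F, and the 95% interval adds 2.37 SE either way. DESeq2 1.42.0 and limma-voom 3.58.1 were alternatives, beside other scalings and filters and the leaving out of each library. The tests were checked on simulated counts. Exon lengths, positions and transcript classes are from GENCODE 29. Members and lists were chosen with earlier results of these data known. Genes named are those past the threshold, all kinases and the most abundant of each role. From each of the other splicing lists, up to 4 were named, those past the threshold with the largest change. Further members were named after their values were seen. The planned description of protein sequences was not made.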

Additional observations from a re-analysis of the deposited data

How the results depend on the processing

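The median log2 fold change of the splicing regulators lay below 0 under each of the 13 alternatives, from -0.207 to -0.0895 when single libraries were left out, and 33 to 35 of the 49 genes lay below 0. Of 637 values for single regulators, 549 kept their direction and their side of the threshold, 59 came to pass it, 12 ceased to and 17 changed sign. The sign changes fell on 10 genes with log2 fold changes within 0.14 of 0. With single libraries left out, the log2 fold changes of these ran from -0.162 to 0.0718 for SRSF3, from -0.0367 to 0.0852 for SRSF10, from -0.484 to 0.403 for SRRM2, from -0.145 to 0.373 for SON, from -0.0895 to 0.0134 for HNRNPH1, from -0.0743 to 0.231 for HNRNPC, from -0.181 to 0.05 for HNRNPLL, from -0.102 to 0.0136 for HNRNPU, from -0.231 to 0.0124 for PTBP1 and from -0.0772 to 0.167 for CELF1. SRRM2 was also at -0.0122 with limma-voom and at -0.0114 with the replicate block.

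Counts of calls moved more. With 1 library left out, 235 to 729 genes of all were higher and 270 to 866 lower, 0 to 5 regulators were lower, and 0 to 5 and 1 to 7 of the other splicing genes were higher and lower; fewer libraries entered those fits, and a group's lone library is assumed to vary as the other group does. Regulators higher numbered 2 of 49 under upper-quartile scaling, where 692 of all 16340 genes were higher. Scaling by total counts gave 2 of 49 as well, where 618 of all genes were higher. That scaling left 3 of 109 other splicing genes lower, where 532 of all genes were lower. DESeq2 called 1027 genes higher and 1160 lower, 4 and 8 of them regulators, with 9 other splicing genes lower. With limma-voom 2 regulators were higher and 4 lower, where 627 of all genes were higher and 695 lower. Without the filter 1514 of 26103 genes were higher and 1631 lower. There 14 of the 49 regulators were called (28.6%), a larger share than of all genes, 4 higher and 10 lower. Of the other splicing genes, 8 were higher and 14 lower. Against a fold of 1.5 there were 15 higher and 8 lower, 0 and 0 regulators and 0 and 0 other splicing genes. The cause was not tested.

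The groups share replicate numbers, but nothing in the labels pairs them, and with 2 pairs a correlation of deviations of 0.315 does not settle it. With the replicate block 2771 of 16340 genes were higher and 2996 lower. That setting called 28 of the 49 regulators (57.1%), a larger share than of all genes, 9 higher and 19 lower. Of the 109 other splicing genes tested, 16 were higher and 32 lower. With 2 libraries a group, the smallest adjusted p of any gene was 0.00336. For 19 regulators the interval of the log2 fold change reached beyond a 1.5-fold change, so a change larger than that was not excluded for them. Their intervals were not all wide. HNRNPAB is among them with an SE of 0.104, below the regulators' median of 0.112, and was called at 1.445-fold lower.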
